A study of Mus musculus with 109 samples.

Results

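Retinas that had received IL1A alone were compared directly with retinas that had received TNF alone, 2 days after injection into the vitreous. The members were chosen by their labels only (wild type, batch 1, day 2, and treatment given as IL1 or as TNF), and no measured value entered the choice. This gave 17 of the 109 retinas in the series, 9 after IL1A (4 female, 5 male) and 8 after TNF (4 female, 4 male), each from a different mouse. All were C57BL/6J mice 2 to 4 months old, and RNA was taken from the whole retina. No mouse received both cytokines singly, so the direct comparison is between mice. The other eye received PBS and was sequenced in 7 of 9 IL1A mice and in 8 of 8 TNF mice, while IL1A replicates 4 and 6 had no such eye. The 2 proteins were not given at the same mass, the IL1A solution being the more concentrated, and dose and cytokine cannot be told apart. The 31 PBS retinas and 10 IL1A+TNF retinas of the same day and batch shared the fit.

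IL1A signals through IL1R1 with the accessory protein IL1RAP, which recruit MYD88 and the IRAK kinases, whereas IL1R2 is a decoy and IL1RN a secreted antagonist. TNF signals through TNFR1 and TNFR2 (genes Tnfrsf1a and Tnfrsf1b) to TRADD, RIPK1 and TRAF proteins. Both routes lead to NF-kB and AP-1, to chemokines and adhesion molecules that draw leukocytes out of vessels, and to changes in Müller glia, astrocytes and microglia, and TNFR1 can also engage caspase 8 or necroptosis. In RNA from whole tissue, fewer cells of a type and less RNA per cell cannot be told apart, nor can RNA made by resident cells and RNA carried in by leukocytes.

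Totals were 32032592 to 41179799 counts per IL1A retina and 32508287 to 40885644 per TNF retina (exact permutation test of the difference in means, two-sided p = 0.337), and 10 counts equal 0.243 to 0.312 CPM (counts scaled to a common library size with TMM factors). The rod transcription factor Nrl, which marks retina, reached at least 521 CPM in each of the 17 retinas. The summed CPM of 12 lens genes was far more variable, from 3.84 to 1108 after IL1A and from 2.22 to 3050 after TNF. One library stood apart. In the library labelled TNF replicate 6, H2-Aa was at 0.349 CPM against at least 8.67 CPM in the other TNF retinas, Ccr2 at 0.0635 against at least 7.89 CPM, and Lcn2 at 13.4 against at least 49.04 CPM. The PBS-labelled eye of the same mouse had 28.4 CPM of H2-Aa, 15.99 CPM of Ccr2 and 77.1 CPM of Lcn2. Whether the labels of these 2 eyes were exchanged was not tested, so the library is used as labelled, and the counts of each list are given with it and without it where they differ. List counts were not recomputed without other single retinas.

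Some genes of neutrophils (7 of 12), of leukocyte entry (7 of 12), of the acute phase (11 of 20) and of reactive glia (8 of 13 pan-reactive) were higher after IL1A than after TNF, with log2 fold changes of up to 4.00, whereas single genes of Müller glia, cones, rods and amacrine cells were higher after TNF, with log2 fold changes no further from 0 than -0.94 in those lists. Of 19548 genes tested, 1774 (9.08%) differed at a Benjamini-Hochberg FDR under 0.05 in limma and are called DEGs, with 1054 (5.39%) higher after IL1A and 720 (3.68%) higher after TNF. At an FDR under 0.01 there were 715 (3.66%). Of the DEGs, 309 (1.58% of genes) were higher after IL1A by 1 or more on the log2 scale and 19 (0.0972%) were higher after TNF by as much. The 9 IL1A retinas lay entirely above the 8 TNF retinas for 126 genes (0.645%) and entirely below them for 73 (0.373%). Against PBS retinas, IL1A gave 4193 DEGs (21.4%, of which 12% were higher and 9.45% lower, as shares of all genes) and TNF 128 (0.655%, with 0.614% higher and 0.0409% lower), and these comparisons share the IL1A and TNF retinas with the direct one.

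**Figure D1:**
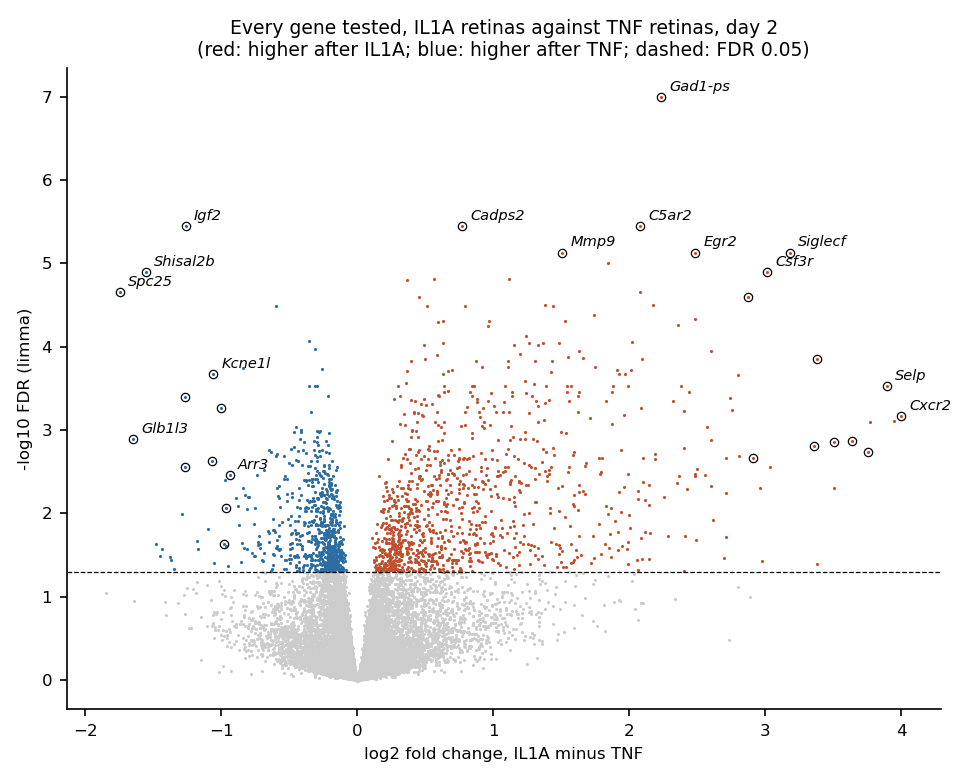
Log2 fold change (IL1A minus TNF, x axis) against the negative log10 of the limma FDR (y axis) for 19548 genes, with 1054 DEGs higher after IL1A in red and 720 higher after TNF in blue. Circles mark genes named by size or FDR, the red side reaches a log2 fold change of 4.00 (Cxcr2), and the blue side -1.75 (Spc25).

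The number of DEGs depended on single retinas. Without TNF replicate 6 it was 866 (4.41%, with 3.03% or 596 higher after IL1A and 1.37% or 270 after TNF), without IL1A replicate 8 it was 920 (646 and 274), and without IL1A replicate 1 it was 1145 (715 and 430). Leaving out both eyes of the mouse of TNF replicate 6 gave 909 (613 and 296). With mouse as a fixed replicate block over mice with both eyes sequenced, a fit in which the 2 cytokines meet only through other eyes of the same mice, the count was 1, for Igf2. DEGs of TNF against PBS, 128 with all retinas, numbered 443 (2.25%, with 2.11% higher) without TNF replicate 6. Leaving out any other single TNF retina gave from 17 (without replicate 7) to 157 (without replicate 3). It was 27 without replicate 5 and 35 without replicate 2, so this count depended on several TNF retinas and moved in both directions.

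**Figure D2:**
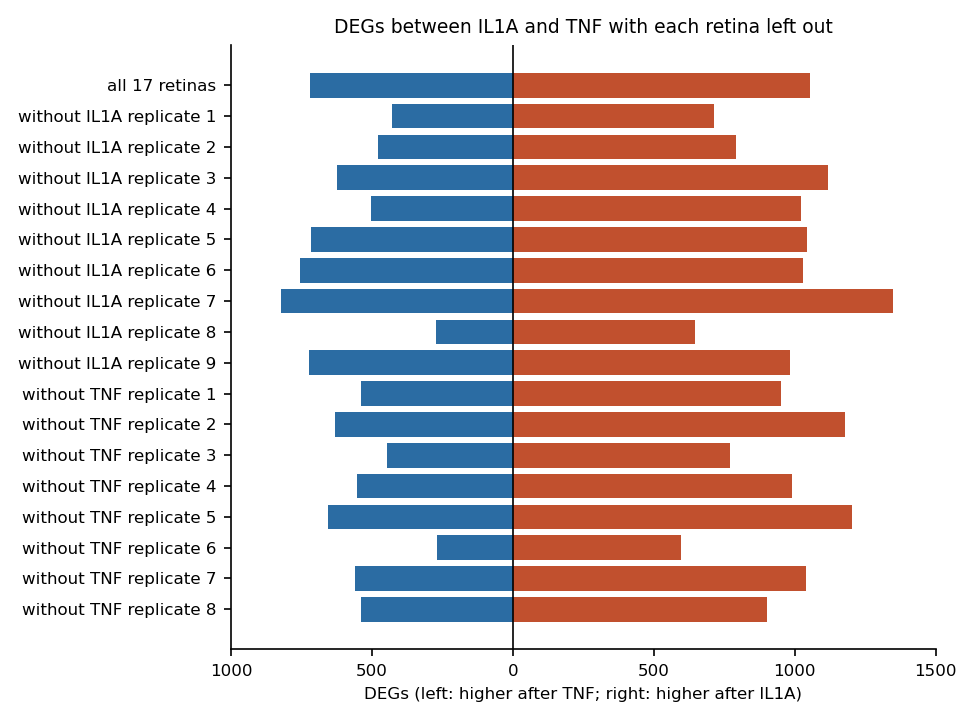
DEGs between IL1A and TNF with all 17 retinas and with each left out in turn, as bars to the right for genes higher after IL1A and to the left for genes higher after TNF. The total runs from 866 without TNF replicate 6 to 2172 without IL1A replicate 7.

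When each cytokine was set against the PBS eyes of its own mice and the 2 differences were compared, limma called 0 genes (edgeR also 0), with 1595 (8.16%) at an unadjusted p under 0.05 and a smallest FDR of 0.0619, for Gad1-ps. Over the 1774 DEGs the median log2 difference, signed by the direct contrast, was 0.40 directly and 0.30 relative to own PBS eyes, while the median standard error was 0.11 and 0.15. PBS eyes of IL1A mice differed from PBS eyes of TNF mice by a median of 0.08 in the same direction. Between these PBS eyes limma and edgeR called 0 genes, with 732 (3.74%) at an unadjusted p under 0.05 and a smallest FDR of 0.99988. For many of the genes with the largest direct differences the PBS eyes of IL1A mice were also the higher. For some of these 1 or both values are given beside the gene, as log2 differences of IL1A minus TNF or of the PBS eyes of IL1A mice minus those of TNF mice. Where no such value is given, the PBS eyes of the 2 sets of mice can still differ.

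**Figure D3:**
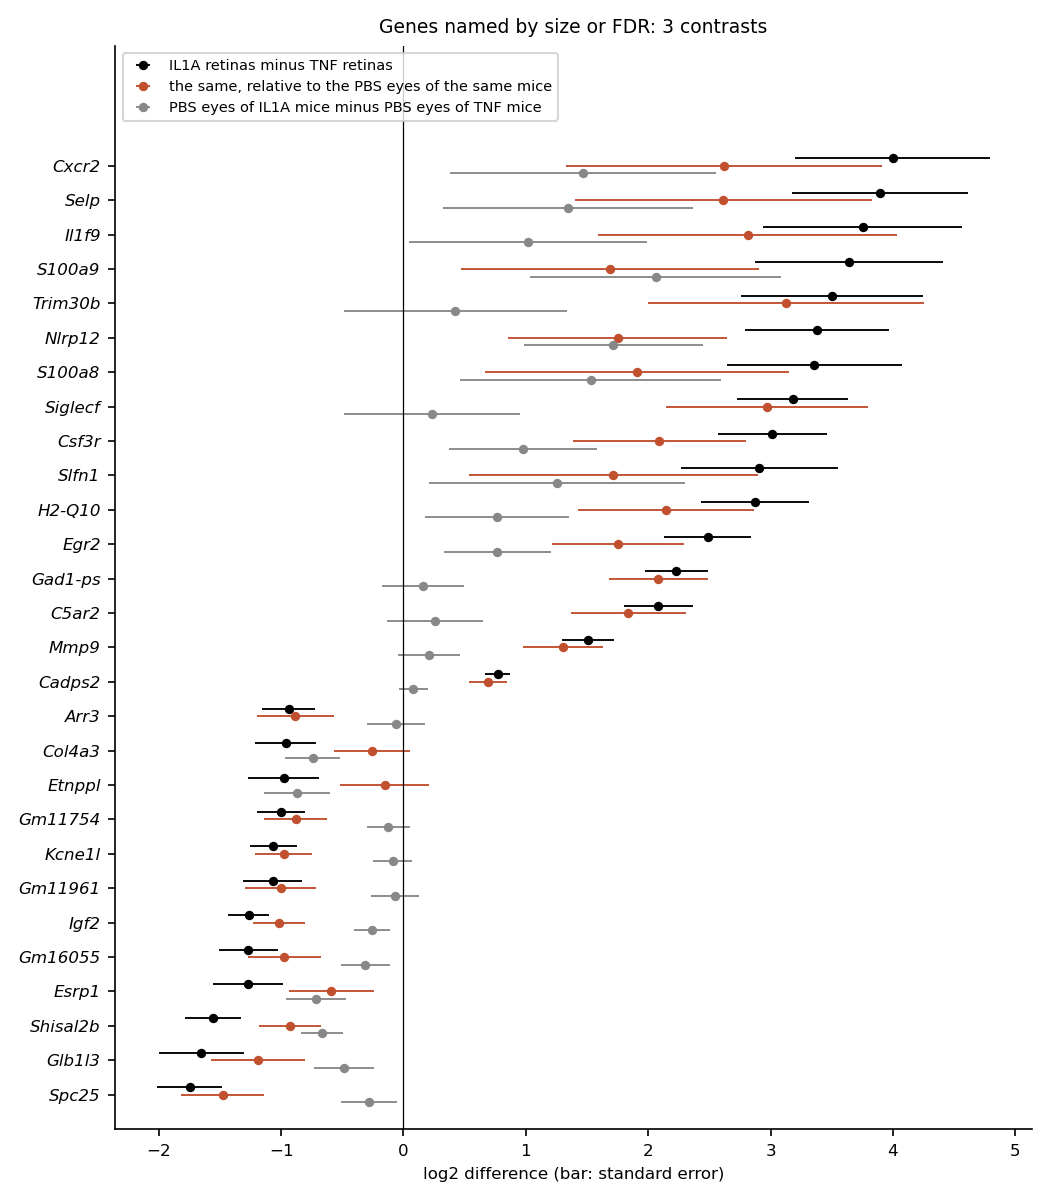
Log2 difference with its standard error (x axis) for genes named by size or FDR (y axis), as IL1A minus TNF retinas in black, the same relative to the PBS eyes of the same mice in red, and PBS eyes of IL1A mice minus those of TNF mice in gray. For Gad1-ps the 3 values are 2.23, 2.08 and 0.16, and for S100a9 they are 3.64, 1.69 and 2.06.

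Of 10 genes for IL1 ligands and receptors, 4 were higher after IL1A and 0 after TNF, beside 5.39% and 3.68% of all genes tested, and the median log2 fold change was 0.69 beside -0.0017 over all genes. Il1b, the inducible IL1 ligand, ranged from 3.71 to 30.02 CPM (median 10.6) after IL1A, from 0.190 to 6.02 CPM (median 2.29) after TNF and from 0.372 to 14.8 CPM (median 1.60) in PBS retinas. IL1A retinas were mostly above TNF retinas, with some overlap, and the log2 fold change was 2.604 (SE 0.55, limma FDR 0.00133). Il1b was 1.55 (SE 0.95) relative to own PBS eyes, whose difference was 1.11. Il1f9, which encodes the IL36 gamma ligand, ranged from 0.379 to 4.62 CPM (median 1.41) after IL1A and from 0 to 0.460 CPM (median 0.160) after TNF, a log2 fold change of 3.75 (SE 0.81, limma FDR 0.00185). Il1f9 was 2.81 (SE 1.22) relative to own PBS eyes, whose difference was 1.02. The decoy receptor Il1r2 ranged from 1.36 to 14.99 CPM (median 5.07) after IL1A and from 0.159 to 1.87 CPM (median 1.11) after TNF, and the signaling receptor Il1r1 differed less, with medians of 28.6 and 19.1 CPM. Their log2 fold changes were 2.48 (limma FDR 0.00335) and 0.56 (limma FDR 0.00753). Il1r2 was 1.45 (SE 0.98) relative to own PBS eyes, whose difference was 1.08. Transcripts of the injected ligand itself, Il1a, did not pass the test (log2 fold change 0.02, SE 0.22, limma FDR 0.971), with 0.429 to 1.73 CPM (median 1.04) after IL1A and 0.749 to 1.49 CPM (median 1.00) after TNF. Il1rap (0.07, limma FDR 0.676) and Il1rn (1.34, limma FDR 0.201) did not pass either. All 4 DEGs of this list stayed DEGs without TNF replicate 6.

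Of 13 tested genes for TNF family ligands and receptors, 7 were higher after IL1A and 0 after TNF (median log2 fold change 0.71), and 5 were higher without TNF replicate 6. Tnf itself was scarce, with 0.278 to 1.05 CPM (median 0.523) after IL1A and 0.0578 to 0.392 CPM (median 0.209) after TNF, and the IL1A retinas were again the higher, by a log2 fold change of 1.67 (SE 0.38, limma FDR 0.00270). Ltb, which encodes lymphotoxin beta, was at 0.480 to 2.73 CPM (median 1.10) after IL1A and 0.0289 to 0.767 CPM (median 0.410) after TNF, a log2 fold change of 2.32 (SE 0.45, limma FDR 4.43e-04). The receptor Tnfrsf1a was at 29.5 to 55.2 CPM (median 38.5) after IL1A and 14.6 to 31.6 CPM (median 25.5) after TNF, a log2 fold change of 0.75 (SE 0.16, limma FDR 0.00169). In PBS retinas it was at 17.1 to 45.8 CPM (median 25.7). Tnfrsf1b, the receptor found mainly on leukocytes and microglia, had a log2 fold change of 0.87 (limma FDR 0.0153), which was 0.57 (limma FDR 0.0915) without TNF replicate 6. The death receptor Fas was also higher after IL1A (0.83, limma FDR 0.0135).

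Among 21 adaptors and kinases below the receptors, 6 were higher after IL1A, 0 after TNF, and the other 15 did not pass (5 were higher without TNF replicate 6, at medians of 0.19 and 0.08). Irak4 (0.57, limma FDR 0.00218), Irak2 (0.32, limma FDR 8.58e-04), Irak3 (0.86, limma FDR 0.00580) and Myd88 belong to the IL1 receptor arm. Myd88, the adaptor of that arm, was at 15.8 to 29.3 CPM (median 18.6) after IL1A and 9.14 to 15.4 CPM (median 12.2) after TNF, so that the groups did not overlap, with a log2 fold change of 0.65 (SE 0.18, limma FDR 0.0159). Its limma FDR was 0.0531 without TNF replicate 6, and the PBS eyes of the 2 sets of mice differed by 0.44. Birc3, an inhibitor of apoptosis in the TNF receptor complex, had a log2 fold change of 1.197 (limma FDR 0.00555), and Map3k8, a kinase upstream of ERK, 0.79 (limma FDR 0.00218). Ripk1, the kinase that joins the TNF receptor to death pathways, did not pass (0.35, limma FDR 0.185).

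Of 16 NF-kB subunits and feedback genes tested, 8 were higher after IL1A and 1 after TNF (6 and 1 without TNF replicate 6). Nfkbiz, which encodes a nuclear I-kappa-B protein that licenses secondary response genes, was at 25.2 to 36.8 CPM (median 32.4) after IL1A and 18.98 to 21.9 CPM (median 20.4) after TNF, with no overlap and a log2 fold change of 0.63 (SE 0.11, limma FDR 9.10e-05). Bcl3, another nuclear member, was at 14.2 to 45.5 CPM (median 18.8) after IL1A and 4.87 to 9.93 CPM (median 7.49) after TNF, also with no overlap. Its log2 fold change was 1.59 (SE 0.35, limma FDR 0.00197) directly and 0.56 (SE 0.49) relative to own PBS eyes, the PBS eyes of IL1A mice being higher by 1.08. The subunit Rela was at 31.2 to 40.04 CPM (median 33.4) after IL1A and 26.99 to 28.8 CPM (median 27.9) after TNF, a small difference of 0.29 on the log2 scale (limma FDR 0.00470) without overlap. Zc3h12a, an endonuclease that degrades cytokine mRNA, also showed no overlap (1.00, limma FDR 5.14e-04). Zc3h12a was 0.47 (SE 0.29) relative to own PBS eyes, whose difference was 0.56. Tnfaip2 was at 5.50 to 25.997 CPM (median 14.1) after IL1A and 0.571 to 7.37 CPM (median 5.24) after TNF, a log2 fold change of 1.83 (SE 0.35, limma FDR 4.51e-04). Tnfaip2 was 1.32 (SE 0.65) relative to own PBS eyes, whose difference was 0.54. The exception was Tnfaip3, the ubiquitin-editing inhibitor of NF-kB, which was lower after IL1A. It was at 102 to 235 CPM (median 183) after IL1A, 218 to 285 CPM (median 251) after TNF and 167 to 336 CPM (median 259.6) in PBS retinas, with a log2 fold change of -0.52 (SE 0.13, limma FDR 0.00593), and it differed from PBS after IL1A (-0.54, limma FDR 2.12e-05) and not after TNF (-0.03, limma FDR 0.979).

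Chemokines were counted by family. Of 9 CXC chemokines tested, only Cxcl1, which draws neutrophils, passed, while 9 of 14 CC and CX3C chemokines were higher after IL1A and 1 after TNF. Without TNF replicate 6, limma called 0 CXC chemokines and the CC and CX3C count was 4 and 1, while edgeR called 6 and DESeq2 4 of them higher after IL1A with all retinas. Cxcl1 was at 0.530 to 3.89 CPM (median 1.81) after IL1A and 0.127 to 0.562 CPM (median 0.353) after TNF, a log2 fold change of 2.14 (SE 0.68, limma FDR 0.0354). It was 1.94 (limma FDR 0.0936) without TNF replicate 6 and 0.16 (SE 1.17) relative to own PBS eyes, with the PBS eyes of IL1A mice higher by 2.09. The call of Cxcl1 was also lost in edgeR and without IL1A replicate 1 or 2 or TNF replicate 1, 3, 4 or 8. Ccl22, a ligand of CCR4, was at 0.101 to 1.29 CPM (median 0.830) after IL1A and 0 to 0.396 CPM (median 0.111) after TNF, and its log2 fold change of 3.04 (SE 0.69, limma FDR 0.00274) stood beside a PBS-eye difference of -0.46. Ccl2, the main monocyte attractant, was at 1.72 to 6.70 CPM (median 3.67) after IL1A and 0.413 to 2.00 CPM (median 1.15) after TNF, and its limma FDR moved from 0.0445 to 0.123 without TNF replicate 6. The log2 fold change of Ccl2 was 1.51. Its call was lost in 19 of 31 alternatives, among them edgeR, DESeq2, eye side added and most fits that left out a single retina. Ccl2 was 0.58 (SE 0.81) relative to own PBS eyes, whose difference was 0.98. Ccl12, another monocyte attractant, stood at 0.372 to 2.42 CPM (median 0.809) in PBS retinas, 0.572 to 1.46 CPM (median 0.946) after IL1A and 0.230 to 0.730 CPM (median 0.385) after TNF, a log2 fold change of 1.03 (SE 0.33, limma FDR 0.0390). Ccl12 was 0.38 (SE 0.43) relative to own PBS eyes, whose difference was 0.69. Its call was lost in 11 of 31 alternatives, 9 of which left out a single retina (IL1A replicates 2, 4, 8 and 9 and TNF replicates 1, 2, 3, 7 and 8). Ccl5, a T cell and monocyte attractant, was the chemokine higher after TNF. It was at 0.173 to 1.61 CPM (median 0.897) after TNF, 0.123 to 0.709 CPM (median 0.452) after IL1A and 0.167 to 0.756 CPM (median 0.336) in PBS retinas, with a log2 fold change of -0.96 (SE 0.29, limma FDR 0.0250), and TNF retinas differed from PBS (1.19, limma FDR 0.00298) where IL1A retinas did not pass (0.23, limma FDR 0.576). The call was lost in 7 of 30 alternatives, among them IL1A and TNF mice with a PBS eye alone (-0.62, limma FDR 0.157), the 17 retinas alone (limma FDR 0.0770), and without IL1A replicate 4 or 6 or TNF replicate 2 or 7. Cxcl10, an interferon-induced chemokine, did not pass between the cytokines (0.18, limma FDR 0.908, with a PBS-eye difference of 0.61).

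The 250 bases before the annotated start are shown for 4 genes that were higher after IL1A and whose promoters hold a match to an NF-kB type motif (GGGA, then any 4 bases, then CC) or a STAT type motif (TTCNNNGAA), either strand counted. They were picked after their values and matches were seen, and the sequences are RefSeq's on GRCm38.p6, in the sense of the gene, all on the plus strand, with the matches to 1 motif for each gene in capitals (NF-kB type for Cxcl1 and Sele, STAT type for Il1f9 and Steap4). Sele also has 1 STAT type match (TTCCCagaa), which begins inside its NF-kB type match and is therefore partly in capitals. Steap4 also has 2 NF-kB type matches, left in lower case. Cxcl1 (chr5:90890995-90891244) has 3 NF-kB type matches, of which a pair overlaps at 71 to 61 bases before the start. Sele (chr1:164047984-164048233), the endothelial selectin described with the leukocyte genes, has 1 at 145 to 136 bases before it. The STAT type match of Il1f9 (chr2:24186226-24186475) lies at 128 to 120 bases and that of Steap4 (chr5:7960222-7960471), a metalloreductase of reactive glia, at 116 to 108 bases. Among 32841 RefSeq promoters of this length, 17.6% hold the first motif and 7.02% the second, so a match is a description of these letters and not a site.
Cxcl1: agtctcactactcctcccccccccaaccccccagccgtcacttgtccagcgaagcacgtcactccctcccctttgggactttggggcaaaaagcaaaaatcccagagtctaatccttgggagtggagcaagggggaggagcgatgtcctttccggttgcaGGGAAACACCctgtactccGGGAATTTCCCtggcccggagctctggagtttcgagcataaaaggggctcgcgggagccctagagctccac
Sele: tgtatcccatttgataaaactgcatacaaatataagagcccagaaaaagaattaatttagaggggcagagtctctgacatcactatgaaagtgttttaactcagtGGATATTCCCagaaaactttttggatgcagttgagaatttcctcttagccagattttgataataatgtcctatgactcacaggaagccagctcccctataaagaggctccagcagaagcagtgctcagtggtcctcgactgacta
Il1f9: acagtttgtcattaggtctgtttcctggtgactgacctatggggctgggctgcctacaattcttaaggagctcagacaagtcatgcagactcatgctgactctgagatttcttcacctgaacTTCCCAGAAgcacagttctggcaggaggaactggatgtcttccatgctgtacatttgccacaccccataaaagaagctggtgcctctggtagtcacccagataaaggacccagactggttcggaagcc
Steap4: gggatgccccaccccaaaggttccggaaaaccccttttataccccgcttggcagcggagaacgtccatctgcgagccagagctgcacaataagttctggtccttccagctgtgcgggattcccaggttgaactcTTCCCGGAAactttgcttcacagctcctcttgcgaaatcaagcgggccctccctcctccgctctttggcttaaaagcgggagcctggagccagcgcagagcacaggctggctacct

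Genes of gp130 cytokines, STAT3 and the acute phase were higher after IL1A in 11 of 20 cases and after TNF in 0, with a median log2 fold change of 0.83, and 8 were higher without TNF replicate 6. Lcn2, a secreted siderophore-binding protein of reactive glia and neutrophils, was at 229 to 946 CPM (median 591) after IL1A, 13.4 to 165 CPM (median 125) after TNF and 28.5 to 416 CPM (median 89.2) in PBS retinas. Each IL1A retina was above each TNF retina, by a log2 fold change of 2.598 (SE 0.44, limma FDR 1.11e-04), or 2.20 without TNF replicate 6, and 1.98 (SE 0.61) relative to own PBS eyes, whose difference was 0.65. Stat3 was at 257 to 383 CPM (median 289.9) after IL1A and 174 to 247 CPM (median 197) after TNF (0.52, limma FDR 0.00470). The oncostatin M receptor Osmr was at 50.4 to 89.6 CPM (median 59.4) and 26.6 to 44.5 CPM (median 40.7), and the transcription factor Cebpd at 38.7 to 85.3 CPM (median 51.4) and 15.9 to 28.7 CPM (median 20.2), IL1A first, and none of these 3 genes overlapped between the groups. Socs3, the feedback inhibitor of this pathway, was at 25.6 to 107 CPM (median 34.5) after IL1A and 12.2 to 25.7 CPM (median 16.4) after TNF, a log2 fold change of 1.23 (SE 0.32, limma FDR 0.0101). For Stat3, Cebpd and Socs3 the difference relative to own PBS eyes was 0.22, 0.64 and 0.58, and the PBS eyes of the 2 sets of mice differed by 0.31, 0.77 and 0.68. Serpina3n, a protease inhibitor of reactive astrocytes, had 34.1 to 1241 CPM (median 358) after TNF, a wider spread than the 301 to 1438 CPM (median 825) after IL1A. Its limma FDR was 0.0274 with a log2 fold change of 1.61, and 0.129 without TNF replicate 6. The call was lost in 12 of 31 alternatives, among them edgeR, DESeq2 and fits without IL1A replicate 1, 2 or 8 or TNF replicate 1 or 3.

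**Figure D4:**
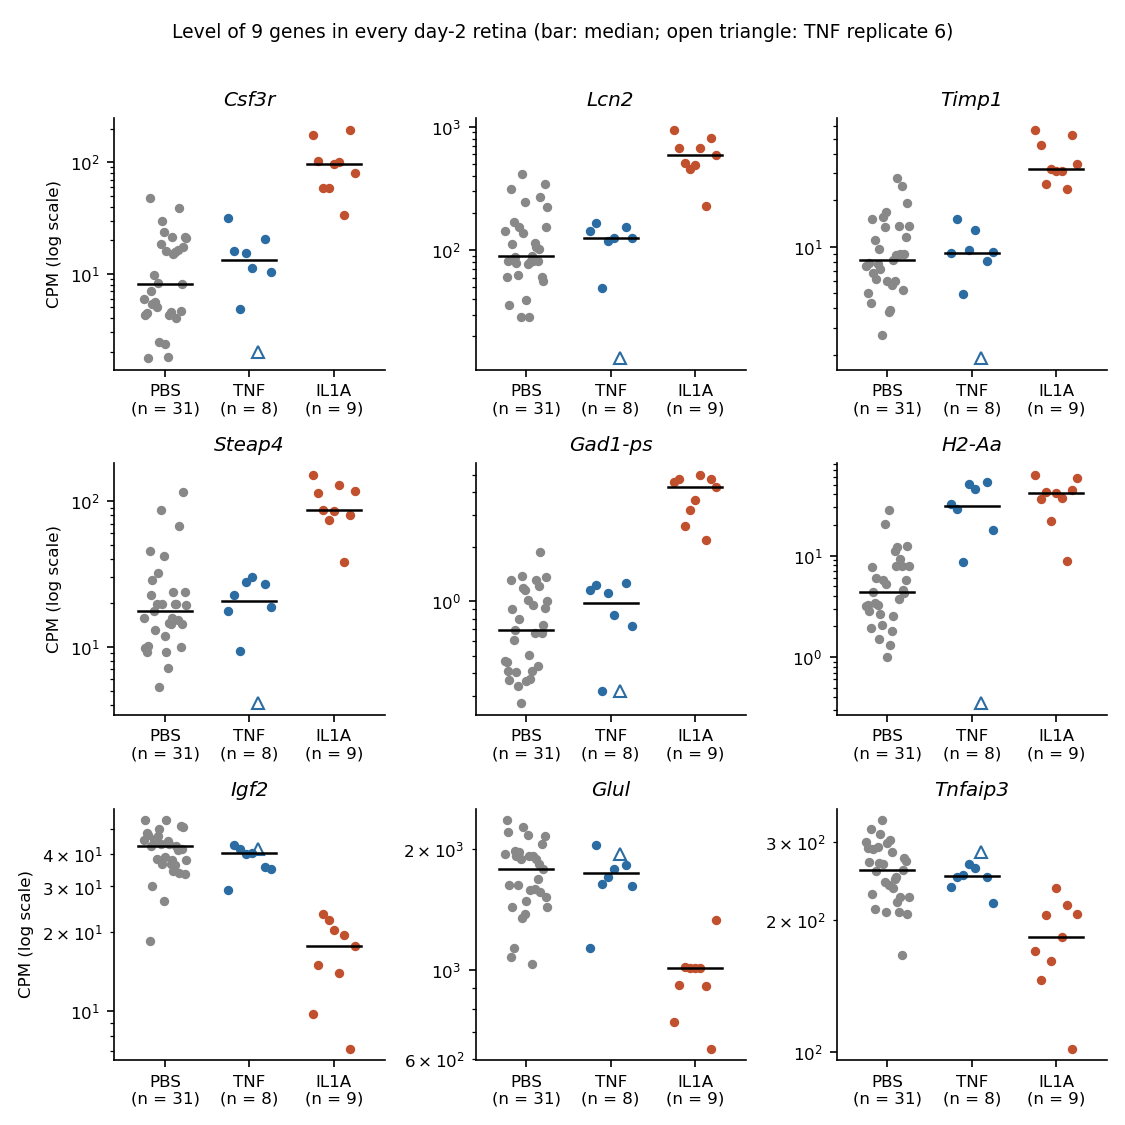
CPM on a log scale (y axis) of 9 genes in each PBS, TNF and IL1A retina of day 2 (x axis), with the group median as a bar and TNF replicate 6 as an open triangle. IL1A retinas lie entirely above TNF retinas for Csf3r, Lcn2, Timp1, Steap4 and Gad1-ps and entirely below for Igf2, while H2-Aa overlaps between the cytokines.

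Reactive-glia genes were higher after IL1A for 8 of 13 pan-reactive, 3 of 11 A1 and 4 of 12 A2 genes, with 0 higher after TNF, and for 7, 2 and 1 of them without TNF replicate 6. Timp1, an inhibitor of matrix metalloproteases, was at 23.7 to 57.2 CPM (median 31.8) after IL1A and 1.90 to 15.1 CPM (median 9.14) after TNF, without overlap, a log2 fold change of 2.18 (SE 0.34, limma FDR 3.12e-05). Timp1 was 1.55 (SE 0.52) relative to own PBS eyes, whose difference was 0.67. Steap4 was at 38.4 to 151 CPM (median 86.9) after IL1A and 4.09 to 30.3 CPM (median 20.6) after TNF, also without overlap (2.36, SE 0.38, limma FDR 5.46e-05). Steap4 was 1.48 (SE 0.58) relative to own PBS eyes, whose difference was 0.93. The ferroxidase ceruloplasmin, Cp, was abundant, at 819 to 1821 CPM (median 1315) after IL1A and 331 to 778 CPM (median 669) after TNF, and its difference of 1.11 (SE 0.17, limma FDR 1.55e-05) was 0.96 (SE 0.23) relative to own PBS eyes. The intermediate filament genes Gfap (0.48, limma FDR 0.139) and Vim (0.35, limma FDR 0.180) did not pass between the cytokines. Among A1 genes H2-D1 passed (0.76, limma FDR 0.0282) and Gbp2 did not (0.14, limma FDR 0.661). H2-D1 lost the call in 7 of 31 alternatives, among them without TNF replicate 6 (limma FDR 0.103) and without IL1A replicate 1, 2 or 8.

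Of 12 genes that Müller glia use at rest, 1 was higher after IL1A and 4 after TNF (1 and 3 without TNF replicate 6). Glul, the glutamine synthetase that clears glutamate, was at 636 to 1330.1 CPM (median 1008) after IL1A, 1132 to 2044 CPM (median 1743) after TNF and 1031 to 2357 CPM (median 1786) in PBS retinas, and 8 of 9 IL1A retinas were below the lowest TNF retina. The log2 fold change was -0.84 (SE 0.15, limma FDR 1.83e-04) and -0.56 (SE 0.21) relative to own PBS eyes. Rlbp1, which binds retinaldehyde in the visual cycle, was at 78.1 to 156 CPM (median 138) after IL1A and 154 to 239 CPM (median 188) after TNF, a log2 fold change of -0.59 (SE 0.13, limma FDR 0.00193). The carbonic anhydrase Car14 (-0.60, limma FDR 0.0169) moved the same way. Crym, a thyroid hormone binding protein, was the member higher after IL1A, at 125 to 209 CPM (median 144) against 67.9 to 144 CPM (median 89.5) (0.71, SE 0.16, limma FDR 0.00199).

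Microglia are the resident macrophages of the retina. Of 12 homeostatic genes, 3 were higher after IL1A and 1 after TNF (3 and 0 without TNF replicate 6). The purinergic receptor P2ry13 was at 2.65 to 6.94 CPM (median 4.50) after IL1A and 1.17 to 2.697 CPM (median 2.32) after TNF, a log2 fold change of 1.199 (SE 0.21, limma FDR 1.22e-04). Siglech was the one on the TNF side, at 1.53 to 2.89 CPM (median 2.09) after TNF and 0.552 to 2.48 CPM (median 1.24) after IL1A, with a log2 fold change of -0.71 (SE 0.22, limma FDR 0.0262). Its call was lost in 11 of 31 alternatives, among them without TNF replicate 6 (limma FDR 0.0776). Cx3cr1, the fractalkine receptor, was above PBS after either cytokine, by 0.86 (limma FDR 2.00e-09) after IL1A and by 0.50 (limma FDR 0.0179) after TNF, and did not pass between them (0.36, limma FDR 0.0879). Disease-associated microglial genes were higher after IL1A for 6 of 19 (4 without TNF replicate 6, at medians of 0.50 and 0.30) and after TNF for 0. Tyrobp, the signaling adaptor of TREM2, was at 7.70 to 35.9 CPM (median 22.1) after IL1A and 1.43 to 13.9 CPM (median 11.1) after TNF (1.36, SE 0.30, limma FDR 0.00241), and the beta-glucan receptor Clec7a at 5.1001 to 24.8 CPM (median 14.6) and 1.14 to 11.3 CPM (median 7.31) (1.24, SE 0.30, limma FDR 0.00459).

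MHC class II genes, which present peptides to helper T cells, were above PBS after either cytokine. All 11 passed in limma after IL1A (beside 12% of all genes) and 6 after TNF (beside 0.614%), or 11 without TNF replicate 6 (beside 2.11%). Between the cytokines 1 of 11 passed in limma with all retinas (9 at an unadjusted p under 0.05, and 0 in edgeR and DESeq2). Without that library 0 passed, at medians of 0.85 with it and 0.21 without it. Ciita, the master regulator of the class, was at 3.33 to 9.43 CPM (median 6.32) after IL1A, 2.92 to 7.62 CPM (median 5.68) after TNF and 1.72 to 4.34 CPM (median 3.02) in PBS retinas. It was above PBS by 1.04 (limma FDR 1.07e-09) and 0.82 (limma FDR 0.00174), and the cytokines differed by 0.22 (SE 0.16, limma FDR 0.429). H2-Aa was at 8.91 to 62.3 CPM (median 41.2) after IL1A and 0.349 to 52.8 CPM (median 30.5) after TNF, and the direct log2 fold change of 1.00 (SE 0.49, limma FDR 0.207) became 0.21 (limma FDR 0.808) without TNF replicate 6. The invariant chain Cd74 had direct log2 fold changes of 1.03 (limma FDR 0.183) and 0.31 (limma FDR 0.712). A missed threshold does not show equal levels.

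Of 18 class I presentation genes, 17 were above PBS after IL1A (beside 12% of all genes) and 0 after TNF (beside 0.614%). Without TNF replicate 6, 4 were above PBS after TNF (beside 2.11%). Between the cytokines 2 passed in limma. By edgeR 6 and by DESeq2 8 of the 18 passed. Of 15 interferon-gamma induced GTPases, which restrict intracellular pathogens, 0 passed in limma (4 at an unadjusted p under 0.05), 5 in edgeR and 4 in DESeq2, all higher after IL1A, and the median log2 fold change was 0.56. Of 26 type I interferon genes 4 were higher after IL1A in limma. Without TNF replicate 6 the limma counts between the cytokines were 0 class I genes and 1 type I interferon gene.

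Neutrophil genes had the highest median of the 43 lists. Of 12 tested, 7 were higher after IL1A and 0 after TNF, and 6 and 0 without TNF replicate 6. The median log2 fold change was 2.91 (2.55 without TNF replicate 6), it was 1.86 relative to own PBS eyes and 1.00 between the PBS eyes of the 2 sets of mice, and the summed level of the list was 93.4 to 496 CPM after IL1A, 22.6 to 84.9 CPM after TNF and 19.8 to 181 CPM in PBS retinas. The defining genes Ly6g, Elane and Mpo did not pass the filter on low counts. Csf3r, the receptor for granulocyte colony stimulating factor (ENSMUSG00000028859; chromosome 4, 126024550 to 126044440, plus strand), was at 34.0 to 197 CPM (median 96.7) after IL1A, 2.00 to 31.9 CPM (median 13.3) after TNF and 1.76 to 48.2 CPM (median 8.15) in PBS retinas. The groups did not overlap, and the log2 fold change was 3.02 (SE 0.44, limma FDR 1.27e-05), 2.57 without TNF replicate 6 and 2.09 (SE 0.71) relative to own PBS eyes, whose difference was 0.98. Cxcr2, the receptor for CXCL1 and related chemokines (ENSMUSG00000026180; chromosome 1, 74153989 to 74161246, plus strand), was at 9.44 to 47.1 CPM (median 20.3) after IL1A and 0 to 6.45 CPM (median 2.30) after TNF, the largest log2 fold change among DEGs with a mean of at least 1 CPM (4.00, SE 0.80, limma FDR 6.81e-04). It was 2.93 without TNF replicate 6, in which it was at 0. Cxcr2 was 2.62 (SE 1.29) relative to own PBS eyes, whose difference was 1.47. The calcium-binding alarmins S100a8 and S100a9 were at 8.08 to 47.8 CPM (median 20.1) and 11.9 to 62.3 CPM (median 21.6) after IL1A against 0.0952 to 4.74 CPM (median 2.98) and 0.127 to 5.53 CPM (median 2.28) after TNF. Their log2 fold changes were 3.36 (limma FDR 0.00155) and 3.64 (limma FDR 0.00137), and 1.91 (SE 1.24) and 1.69 (SE 1.22) relative to own PBS eyes, with the PBS eyes of IL1A mice higher by 1.53 and 2.06. PBS retinas spread widely for both genes, up to 26.7 and 36.4 CPM, so single PBS eyes reached the level of IL1A retinas. Nlrp12, a myeloid NOD-like receptor, was at 0.738 to 5.49 CPM (median 1.71) after IL1A and 0.0635 to 0.482 CPM (median 0.203) after TNF (3.38, SE 0.59, limma FDR 1.40e-04). Nlrp12 was 1.75 (SE 0.89) relative to own PBS eyes, whose difference was 1.71. Slfn1, a Schlafen family gene, had a log2 fold change of 2.91 (limma FDR 0.00219). Slfn1 was 1.71 (SE 1.18) relative to own PBS eyes, whose difference was 1.26.

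Of 16 monocyte and macrophage genes tested, 5 were higher after IL1A and 0 after TNF (3 and 0 without TNF replicate 6, at medians of 0.81 and 0.38). Against PBS 13 were higher after IL1A (beside 12% of all genes) and 4 after TNF (beside 0.614%). Without TNF replicate 6, 10 were higher after TNF than after PBS (beside 2.11%). Ccr2, the CCL2 receptor of inflammatory monocytes, was at 12.4 to 49.7 CPM (median 37.4) after IL1A and 0.0635 to 46.8 CPM (median 26.5) after TNF and did not pass (1.46, limma FDR 0.0930), and it was 0.45 without TNF replicate 6. Against PBS it was raised after IL1A (3.34, limma FDR 9.38e-08) and, without that library, after TNF (2.903, limma FDR 8.00e-09). Arg1, an arginase of alternatively activated macrophages, was a DEG, at 4.52 to 49.999 CPM (median 19.4) after IL1A and 1.59 to 14.0 CPM (median 6.96) after TNF (1.66, SE 0.41, limma FDR 0.00540). The summed level of the list was 282 to 789 CPM after IL1A and 98.9 to 660 CPM after TNF, its lowest TNF value being replicate 6. T cell, B cell and erythrocyte lists, with 5 tested genes each, gave 0 DEGs in limma (0, 1 and 1 at an unadjusted p under 0.05) and in edgeR, and DESeq2 called 1 erythrocyte gene.

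Of 8 sialic acid binding lectins, 4 were higher after IL1A and 1, Siglech, after TNF (3 and 0 without TNF replicate 6, at medians of 0.96 and 0.64). Siglecf, a lectin of eosinophils and some macrophages (ENSMUSG00000039013; chromosome 7, 43351341 to 43359531, plus strand), was at 3.23 to 24.9 CPM (median 14.3) after IL1A, 0.349 to 4.37 CPM (median 1.49) after TNF and 0.0834 to 4.21 CPM (median 0.732) in PBS retinas. Its log2 fold change of 3.18 (SE 0.45, limma FDR 7.43e-06) was 2.77 without TNF replicate 6 and 2.97 (SE 0.83) relative to own PBS eyes, whose own difference was 0.23.

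Genes for leukocyte entry were higher after IL1A in 7 of 12 cases and after TNF in 0 (5 without TNF replicate 6). Selp, the selectin of platelets and endothelium, was at 0.707 to 10.8 CPM (median 4.18) after IL1A and 0 to 1.24 CPM (median 0.304) after TNF, a log2 fold change of 3.89 (SE 0.72, limma FDR 2.98e-04). Selp was 2.62 (SE 1.22) relative to own PBS eyes, whose difference was 1.35. Sele was at 0.338 to 3.98 CPM (median 1.61) after IL1A and 0 to 0.916 CPM (median 0.384) after TNF (2.42, SE 0.59, limma FDR 0.00514), and 2.11 (SE 0.88) relative to own PBS eyes. The adhesion molecules Icam1 (0.45, limma FDR 0.303) and Vcam1 (0.40, limma FDR 0.179) did not pass. Of 12 endothelial and pericyte markers 0 were higher after IL1A and 1 (Flt1, -0.27, limma FDR 0.00578) after TNF, with summed levels of 1075 to 1441 CPM after IL1A and 1200 to 1432 CPM after TNF. In the same range of roles, 6 of 17 matrix proteases and inhibitors were higher after IL1A (4 without TNF replicate 6). Mmp9, gelatinase B, was at 28.9 to 160.2 CPM (median 79.3) after IL1A and 17.5 to 35.2 CPM (median 25.1) after TNF, a log2 fold change of 1.51 (SE 0.21, limma FDR 7.43e-06), and 1.31 (SE 0.32) relative to own PBS eyes.

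Complement genes were higher after IL1A for 7 of 20 and after TNF for 0 (4 and 0 without TNF replicate 6, at medians of 0.61 and 0.39). C1qc, a subunit of the initiating complex, was at 14.9 to 26.8 CPM (median 24.7) after IL1A and 6.22 to 22.99 CPM (median 15.6) after TNF (0.65, SE 0.16, limma FDR 0.00657). C5ar2, the second receptor for C5a, which lay outside that list and was named by its FDR, was at 1.54 to 4.65 CPM (median 3.27) after IL1A and 0.376 to 1.34 CPM (median 0.685) after TNF. No IL1A retina reached down to the TNF range, and the log2 fold change of 2.08 (SE 0.28, limma FDR 3.54e-06) was 1.84 (SE 0.47) relative to own PBS eyes.

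Heme and metal genes were higher after IL1A for 8 of 18 and after TNF for 1 (the transferrin receptor Tfrc, -0.25, limma FDR 0.0497), and for 7 and 0 without TNF replicate 6. Hmox1, heme oxygenase, was at 19.8 to 101 CPM (median 39.1) after IL1A, 3.84 to 34.6 CPM (median 11.2) after TNF and 4.16 to 25.6 CPM (median 7.82) in PBS retinas, a log2 fold change of 1.66 (SE 0.29, limma FDR 1.36e-04). The metallothionein Mt2 was at 40.1 to 117 CPM (median 76.5) after IL1A and 18.5 to 38.6 CPM (median 31.2) after TNF without overlap (1.24, SE 0.23, limma FDR 3.55e-04), with a PBS-eye difference of 0.50, and the iron exporter Slc40a1 had a log2 fold change of 0.67 (limma FDR 1.96e-04). The NRF2 targets Nqo1, Gclc, Gclm, Txnrd1, Srxn1 and Slc7a11 were among the 9 that did not pass.

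Death genes were higher after IL1A for 7 of 25 and after TNF for 0, and 5 without TNF replicate 6. Pmaip1, the BH3-only protein NOXA, was at 1.64 to 6.64 CPM (median 4.04) after IL1A and 0.491 to 2.43 CPM (median 1.76) after TNF (1.48, SE 0.25, limma FDR 9.00e-05), and 1.52 (SE 0.40) relative to own PBS eyes. Its binding partner Mcl1, which opposes apoptosis, was also higher after IL1A (0.41, limma FDR 6.00e-04). The inflammasome sensor Nlrp3 was at 1.49 to 5.59 CPM (median 3.18) after IL1A and 0.317 to 1.66 CPM (median 1.22) after TNF (1.57, SE 0.29, limma FDR 2.98e-04), and the pore-forming gasdermin Gsdmd differed by 0.80 (limma FDR 0.00340). Casp8, the initiator caspase below TNFR1 and FAS, differed by 0.62 (limma FDR 0.0199) and by 0.46 (limma FDR 0.101) without TNF replicate 6.

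Of 14 AP-1 and immediate early genes, 3 were higher after IL1A (2 without TNF replicate 6). Egr2, a zinc finger transcription factor, was at 2.92 to 11.3 CPM (median 5.11) after IL1A and 0.578 to 2.62 CPM (median 0.827) after TNF without overlap (2.49, SE 0.35, limma FDR 7.43e-06). Egr2 was 1.75 (SE 0.54) relative to own PBS eyes, whose difference was 0.77. Junb (0.82, limma FDR 0.0372) also showed no overlap and lost its call in 13 of 31 alternatives. Among these were fits without TNF replicate 6 (limma FDR 0.0661), without TNF replicate 1, 3, 5, 7 or 8, and without IL1A replicate 1, 2 or 8. Junb was 0.25 (SE 0.36) relative to own PBS eyes, whose difference was 0.60. Prostaglandin, nitric oxide and tryptophan enzymes were higher after IL1A for 6 of 12 (3 without TNF replicate 6, and 4 by edgeR with all retinas). Ptgs1, the constitutive cyclooxygenase, was at 5.201 to 21.05 CPM (median 11.1) after IL1A and 1.68 to 6.61 CPM (median 5.13) after TNF (1.32, SE 0.22, limma FDR 9.50e-05), and the transglutaminase Tgm2 differed by 0.81 (limma FDR 5.33e-04) without overlap. Of 16 endothelin and neurotrophic genes 2 were higher after IL1A and 1 after TNF (2 and 0 without TNF replicate 6). Edn2, an endothelin induced in injured retina, was at 75.3 to 171 CPM (median 90.9) after IL1A and 29.7 to 70.9 CPM (median 46.5) after TNF without overlap (1.09, SE 0.25, limma FDR 0.00274). In PBS retinas Edn2 was at 16.6 to 104 CPM, so single PBS eyes reached the level of IL1A retinas. PBS eyes reached 104 CPM of Edn2 in IL1A mice and 66.9 CPM in TNF mice. The growth factor Fgf2 differed by 0.94 (limma FDR 0.00346), with 8.97 to 42.7 CPM in PBS retinas.

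Lists of neuronal cell types had medians on the TNF side, from -0.27 (cones) to -0.15 (ganglion cells). Against PBS, 11 of 14 ganglion cell, 10 of 12 rod, 8 of 12 cone and 7 of 13 amacrine and horizontal cell genes were lower after IL1A. Of 12 bipolar cell genes 3 were lower after IL1A, and the share over all genes was 9.45%. In the same contrast 1 cone and 1 bipolar cell gene were higher. After TNF, limma called 0 genes of these lists against PBS. Of 14 genes of retinal ganglion cells, the output neurons, 0 were higher after IL1A and 1 after TNF, with a median log2 fold change of -0.15, and the list's summed level was 671 to 1040 CPM after IL1A and 896 to 1062 CPM after TNF. The one was the transcription factor Pou4f2, at 4.60 to 9.90 CPM (median 7.99) after IL1A and 8.59 to 11.1 CPM (median 9.58) after TNF (-0.35, SE 0.10, limma FDR 0.0166), and -0.37 (SE 0.13) relative to own PBS eyes. It lost its call without IL1A replicate 8 (limma FDR 0.0720). Of 14 genes of injured ganglion cells 3 were higher after IL1A (1 without TNF replicate 6). Rod genes were higher after TNF for 3 of 12 (2 without TNF replicate 6), among them Nrl, at 879.7 to 1013 CPM (median 971) after TNF and 521 to 913 CPM (median 768) after IL1A (-0.37, SE 0.10, limma FDR 0.00841). Cone genes were higher after TNF for 4 of 12 and after IL1A for 1 (3 and 1 without TNF replicate 6). Cone arrestin, Arr3, was at 104 to 252 CPM (median 137) after TNF, 36.7 to 120.2 CPM (median 70.4) after IL1A and 106 to 308 CPM (median 190.3) in PBS retinas (-0.94, SE 0.22, limma FDR 0.00348), and the thyroid hormone receptor Thrb, which sets cone opsin identity, at 109.6 to 139 CPM (median 129) after TNF and 88.5 to 113 CPM (median 101) after IL1A (-0.31, SE 0.05, limma FDR 1.08e-04). Gnb3, a G protein subunit of cones and ON bipolar cells, went the other way without overlap, at 585 to 849 CPM (median 688) after IL1A and 357 to 542 CPM (median 466) after TNF (0.55, SE 0.11, limma FDR 4.93e-04). Of 13 amacrine and horizontal cell genes 4 were higher after TNF (0 without TNF replicate 6), including the GABA-synthesizing enzymes Gad1 (-0.22, limma FDR 0.0273) and Gad2 (-0.21, limma FDR 0.0191), both of which lost the call without TNF replicate 6 or IL1A replicate 8. Over 31 alternatives Gad1 lost its call in 8 and Gad2 in 4. Of 12 bipolar cell, 11 pigment epithelium and 12 lens genes 0 passed in limma (6, 3 and 0 at an unadjusted p under 0.05) or edgeR, and DESeq2 called 1 bipolar cell gene. Against PBS, 3 pigment epithelium genes were lower after IL1A (beside 9.45% of all genes) and 4 after TNF (beside 0.0409%). The summed level of that list varied widely, from 48.6 to 297 CPM after IL1A, 16.6 to 358 CPM after TNF and 47.2 to 779 CPM in PBS retinas. Cholesterol genes were higher after TNF for 4 of 17 (among them the regulator of sterol synthesis Insig1, -0.36, limma FDR 0.0140) and glycolysis genes for 2 of 19, while 2 of 19 cell cycle genes were higher after IL1A. Without TNF replicate 6 these 3 counts were 1, 0 and 0 in limma.

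**Figure D5:**
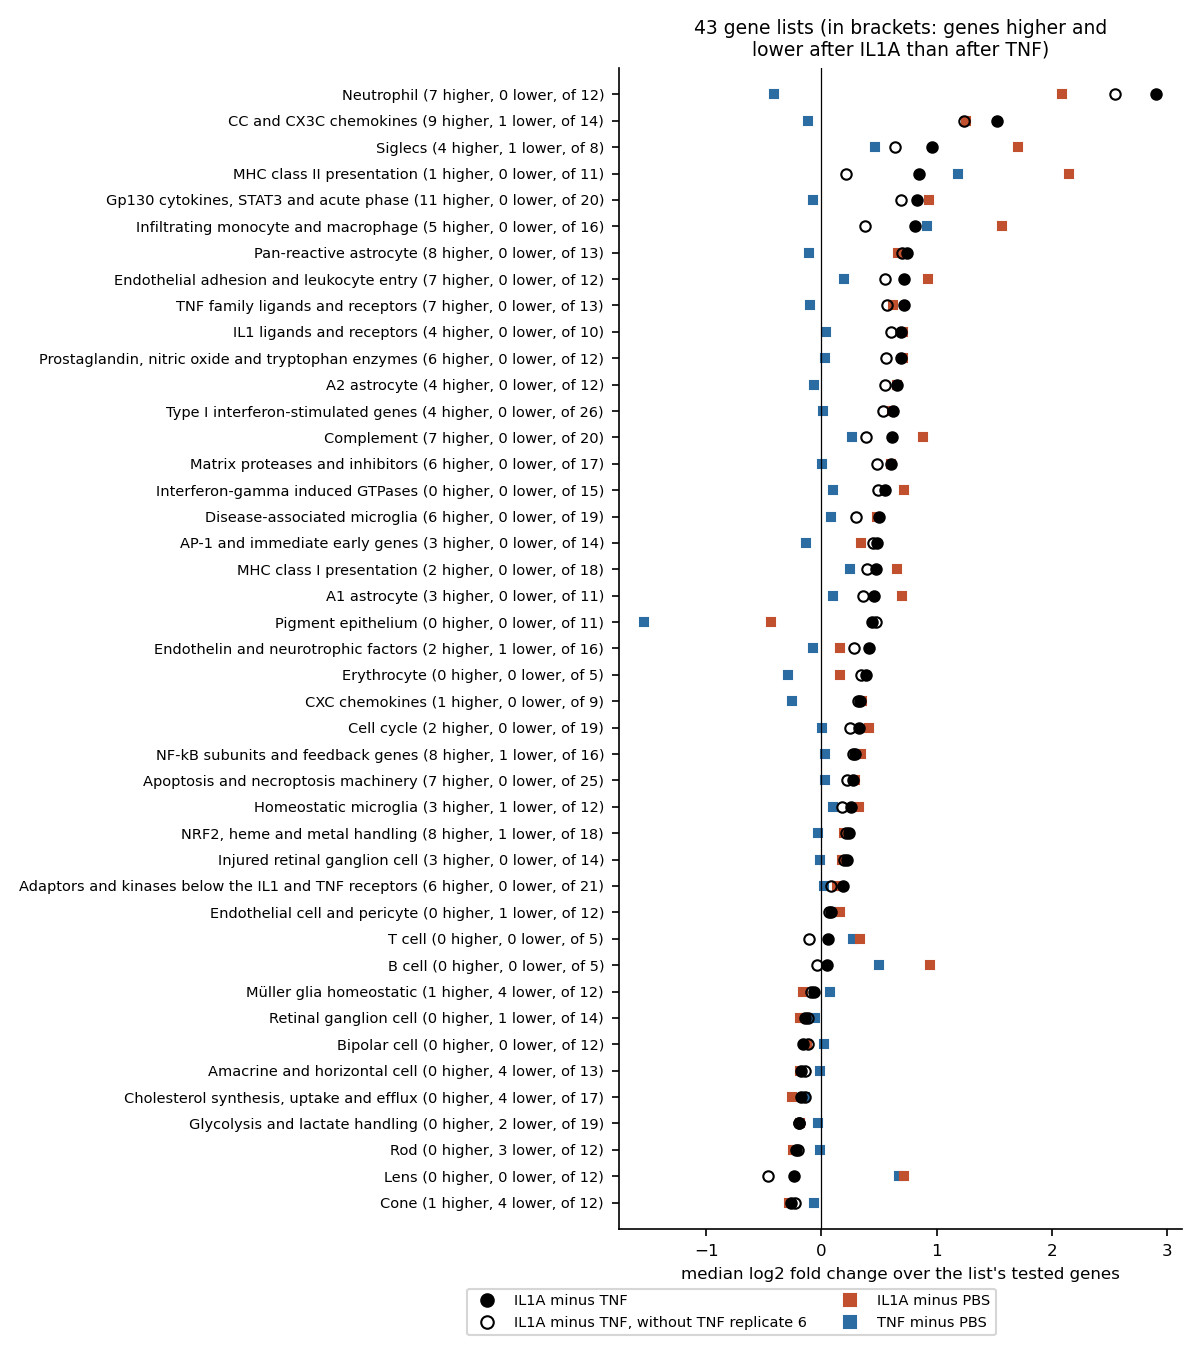
Median log2 fold change over the tested genes of 43 gene lists (x axis), as IL1A minus TNF with all retinas (filled circles) and without TNF replicate 6 (open circles), and each cytokine minus PBS (squares). The neutrophil list lies farthest to the right at 2.91, and the MHC class II list moves from 0.85 to 0.21 without TNF replicate 6.

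The smallest FDR of all belonged to Gad1-ps (ENSMUSG00000090665; chromosome 10, 99444044 to 99445819, plus strand), a processed pseudogene of Gad1, at 2.17 to 4.98 CPM (median 4.27) after IL1A, 0.317 to 1.25 CPM (median 0.978) after TNF and 0.273 to 1.87 CPM (median 0.691) in PBS retinas. The 9 IL1A retinas lay above the 8 TNF retinas, with a log2 fold change of 2.23 (SE 0.26, limma FDR 1.01e-07), and 2.08 (SE 0.40) relative to own PBS eyes. Counting could divide reads between the pseudogene and Gad1, so its level is uncertain, and Gad1 itself was lower after IL1A. Cadps2, which primes dense-core vesicles, was at 13.1 to 21.3 CPM (median 16.7) after IL1A and 7.97 to 11.4 CPM (median 9.56) after TNF without overlap (0.77, SE 0.10, limma FDR 3.54e-06). Trim30b (3.503, SE 0.74, limma FDR 0.00138), a TRIM family gene, and H2-Q10 (2.87, SE 0.44, limma FDR 2.51e-05), a secreted class I molecule whose PBS-eye difference was 0.76, also have close paralogs that could share reads. Trim30b reached 1.98 CPM in the PBS eyes of IL1A mice and 0.285 CPM in those of TNF mice.

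The remaining genes named by size were higher after TNF than after IL1A. Igf2, insulin-like growth factor II (ENSMUSG00000048583; chromosome 7, 142650766 to 142666816, minus strand), was at 28.997 to 43.4 CPM (median 40.3) after TNF, 18.5 to 54.0 CPM (median 42.8) in PBS retinas and 7.15 to 23.5 CPM (median 17.7) after IL1A. The groups did not overlap (-1.26, SE 0.17, limma FDR 3.54e-06), the difference relative to own PBS eyes was -1.02 (SE 0.21), and Igf2 was the single named gene that kept its call in every alternative tried. Spc25, a kinetochore component (ENSMUSG00000005233; chromosome 2, 69193895 to 69206194, minus strand), was at 27.2 to 85.001 CPM (median 45.3) after TNF and 4.76 to 21.6 CPM (median 16.02) after IL1A, also without overlap, with the largest log2 fold change on this side (-1.75, SE 0.27, limma FDR 2.23e-05). In PBS retinas Spc25 was at 21.2 to 74.7 CPM (median 54.3). Glb1l3, a galactosidase-like gene, was at 8.90 to 20.3 CPM (median 14.7) after TNF and 1.08 to 7.97 CPM (median 4.06) after IL1A (-1.65, SE 0.35, limma FDR 0.00129). Shisal2b was at 3.17 to 4.42 CPM (median 3.73) and 0.657 to 2.11 CPM (median 1.31) (-1.56, SE 0.23, limma FDR 1.27e-05, with a PBS-eye difference of -0.67), Kcne1l, a potassium channel subunit, at 1.34 to 2.82 CPM (median 2.0997) and 0.578 to 1.17 CPM (median 1.07) (-1.06, SE 0.19, limma FDR 2.15e-04), TNF first, and none of these 3 overlapped. PBS retinas had 4.31 to 33.8 CPM (median 13.7) of Glb1l3, 1.57 to 5.97 CPM (median 3.18) of Shisal2b and 1.27 to 3.07 CPM (median 2.48) of Kcne1l. The splicing regulator Esrp1 (-1.27, limma FDR 0.00277, with a PBS-eye difference of -0.72) and the basement membrane collagen Col4a3 (-0.96, limma FDR 0.00856) did overlap. Etnppl, a phospholyase of astrocytes, differed by -0.98 (SE 0.29, limma FDR 0.0233) directly and by -0.15 (SE 0.36) relative to own PBS eyes, and Col4a3 by -0.26 (SE 0.31), with the PBS eyes of IL1A mice lower for both (-0.87 and -0.74). The noncoding genes Gm16055 (-1.27, limma FDR 4.02e-04), Gm11961 (-1.07, limma FDR 0.00236) and Gm11754 (-0.9996, limma FDR 5.45e-04) were also higher after TNF than after IL1A. The first and second of these are antisense genes, and the strand setting of the counting is not given in the sources used here.

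Whether the difference between the cytokines depended on sex was tested by an interaction, which called 0 genes in limma and in edgeR (1288 in limma, or 6.59%, at an unadjusted p under 0.05, smallest FDR 0.736). Within females the comparison gave 2046 DEGs (10.5%, with 24.3% of genes at an unadjusted p under 0.05) and within males 2 (0.0102%, with 1377 genes or 7.04% at an unadjusted p under 0.05), which does not show that the sexes differ. TNF replicate 6 and IL1A replicates 1 and 8 were female.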

How the data were processed

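Retinal RNA was sequenced as poly(A)-selected, paired-end libraries. The deposited counts are read pairs per gene, not normalized, which the authors made by aligning to mm10 with STAR 2.7.9a and counting with featureCounts (Subread 2.0.1), with annotation release and strand setting not given in the sources used here. Coordinates and biotypes came from GENCODE M21 on GRCm38 (35533 of 37315 genes matched), which describes the same build.

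Samples were grouped by their labels. The 58 wild-type day 2 retinas of batch 1 (31 PBS, 8 TNF, 9 IL1A, 10 IL1A+TNF) were fitted together in R 4.3.3 with limma 3.58.1 and edgeR 4.0.16, following the study's methods. Genes were filtered with filterByExpr (minimum count 10, minimum total 15, proportion 0.7, large groups counted from 10), scaled with TMM and weighted with voom. Treatment and sex were terms, and mouse was a random block (duplicateCorrelation, 2 rounds, correlation within mice 0.0515). The block comes from the animal, whose 2 eyes share a number. Genes with a Benjamini-Hochberg FDR under 0.05 are DEGs, and 7027 genes were at 0 in all 58 retinas. CPM are TMM-scaled. Standard errors are limma's moderated ones.

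Genes are named by size (12 in either direction, by log2 fold change) or by FDR (the 6 smallest), out of DEGs with a mean of at least 1 CPM, plus members of 43 gene lists. The comparison and the lists were chosen with earlier results of these data known, and the lists therefore carry no test of their own. Fits were also run on simulated counts, drawn independently for each retina, without correlation within mice and without a library that stood apart. Those runs therefore cannot speak to the dependence on single retinas or on PBS eyes, and their outcome is not reported here. Alternatives were other scalings and filters, edgeR and DESeq2 1.42.0, other blocks, covariates and weights, other sets of retinas, and leaving out each retina. No 2 libraries were alike within sampling noise (smallest chi-square per gene 9.87). Counts do not mark molecules, so precision from depth covers counting error only. Retinas of the other batch, days and genotypes were not analysed here. Some results are not reported here.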

Additional observations from a re-analysis of the deposited data

Results flagged for a closer look

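In 25 of 222 gene and cytokine groups (11.3%, where chance alone marks about 1 in 20) the highest or lowest retina stood far from the others by Dixon's 95% criterion. Each was checked in the IL1A and in the TNF retinas for the genes named in the text, except Irak3, Flt1, Tfrc, Insig1 and the NRF2 targets that did not pass.

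IL1A replicate 7 was the low value for 8 genes. It had 14.9 CPM of C1qc, 18.6 CPM of Cd74 and 12.4 CPM of Ccr2, genes of microglia, antigen presentation and monocytes, 2.65 CPM of P2ry13, 7.78 CPM of Tnfrsf1b, 3.28 CPM of Icam1, 3.13 CPM of Casp8 and 20.02 CPM of Irak2.

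TNF replicate 6 was the low value for 8 genes, of which Ccr2 and Cd74 are also among the genes above. It had 0.0635 CPM of Ccr2, 0.0952 CPM of S100a8, 0.127 CPM of S100a9, 0.349 CPM of H2-Aa, 0.889 CPM of Cd74, 0.571 CPM of Tnfaip2, 9.78 CPM of Tgm2 and 9.87 CPM of Gbp2.

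IL1A replicate 8 was high for H2-D1 (403 CPM), Junb (82.9 CPM) and Ripk1 (21.3 CPM) and low for the GABA-synthesizing enzymes Gad1 (156 CPM) and Gad2 (46.2 CPM). Single values stood apart in other TNF retinas. Glul was at 1132 CPM in TNF replicate 1, Ccl5 at 0.173 CPM in TNF replicate 3, Egr2 at 2.62 CPM in TNF replicate 4 and Thrb at 109.6 CPM in TNF replicate 5.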

How the results depend on the processing

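The counts of DEGs (1774, with 1054 higher after IL1A and 720 after TNF) stayed within 1.5 times under other scalings (1747 and 1804), other filters (1424 and 1798), edgeR (1757), DESeq2 (2020), no block (1845), no sex term (1599), eye side added (1513), sample quality weights (2317), the 17 IL1A and TNF retinas alone (2054) and IL1A and TNF retinas of mice with a PBS eye (1577). With mouse as a fixed replicate block, which pairs the 2 eyes of a mouse, they fell to 1, 0 and 1 (1548 genes at an unadjusted p under 0.05), and Cxcl1 turned to a log2 fold change of -0.64 (limma FDR 0.922). That fit compares the cytokines only through other eyes of the same mice. Without both eyes of the mouse of TNF replicate 6, an alternative chosen after seeing the data, they were 909, 613 and 296. Leaving out 1 retina gave 866 to 2172 DEGs, 596 to 1348 higher after IL1A and 270 to 824 higher after TNF. On the TNF side the count also moved by over 1.5 times without TNF replicate 3 (447), IL1A replicate 2 (478), IL1A replicate 1 (430) and IL1A replicate 8 (274). Of 95 named DEGs, 1 (Igf2) kept its call in every alternative, 93 fell short of the threshold in the same direction under the fixed block and Cxcl1 with the other sign, 12 without IL1A replicate 8 and 11 without TNF replicate 6. Of 16 named genes that were no DEGs, 5 were called in at least 1 alternative. These counts leave out the DEGs Irak3, Flt1, Tfrc and Insig1 and the NRF2 targets that did not pass, which were not followed through the alternatives. The contrasts on own PBS eyes, PBS eyes and sex gave 0 DEGs under each alternative run. Depth limits genes near the filter, where 10 counts are 0.243 to 0.312 CPM.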
